A study of Mus musculus with 97 samples.

Results

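Glucocorticoid-responsive genes were followed through a mouse study of non-steroidal anti-inflammatory drugs and tryptophan, in hearts and in jejuna. The 9 genes are those whose symbol in the deposited gene table is Nr3c1, Fkbp5, Tsc22d3, Zbtb16, Sgk1, Klf9, Cdkn1a, Mt1 or Mt2. Each symbol names 1 of the 51368 genes in the table, and all 9 were detected well enough to be tested in both tissues and in every experiment.

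The glucocorticoid receptor, encoded by Nr3c1, is a transcription factor that is held in the cytoplasm by Hsp90 chaperones until corticosterone, the main glucocorticoid of mice, binds it. It then enters the nucleus and binds DNA, and genes such as Fkbp5, Tsc22d3 and Zbtb16 are transcribed more. Corticosterone follows a daily rhythm and rises with handling and other stress, so these genes are widely read as a record of recent hormone exposure. Mt1 and Mt2 respond to glucocorticoids as well, and also to zinc and other metals through the transcription factor Mtf1.

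The study measured RNA by sequencing in 97 libraries of C57BL/6 mice, 59 of whole heart and 38 of flushed jejunum, in 4 experiments that each used a separate cohort. Mice arrived at 6 weeks of age, received their diets for 3 weeks and were 11 weeks old at collection, per the labels. Naproxen, which blocks both cyclooxygenases, and celecoxib, which is selective for cyclooxygenase 2, were mixed into the chow, and tryptophan was injected intraperitoneally once a day at noon in the final week. The sources used here do not state the hour of tissue collection.

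Experiment 1 held uninjected mice: 5 females and 5 males on control chow, 5 females on naproxen at 1323 ppm and 5 males on naproxen at 1610 ppm. All later mice were female and were injected with PBS, alone or with tryptophan at 50 mg/kg. Experiment 2 compared 8 control hearts, 7 hearts with naproxen at 1323 ppm and 8 with naproxen and tryptophan. Experiment 3 compared 8 control hearts with 8 hearts with tryptophan alone, over 4 dissection batches. Experiment 4 held jejuna, also over 4 dissection batches: 8 control, 8 celecoxib at 550 ppm, 7 naproxen at 1323 ppm, 8 tryptophan, and 7 naproxen with tryptophan. Injection, cohort and experiment therefore cannot be told apart. Heart libraries were made from polyadenylated RNA and jejunum libraries by ribosomal RNA depletion, so a level in one tissue is not comparable with a level in the other.

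Library size, in units of 1e6 estimated reads, was 26.3 to 76.4 in hearts and 10.1 to 28.5 in jejuna. Defining markers matched the labelled tissues: the cardiac myosin gene Myh6 had a median of 22172 CPM (counts per 1e6 reads of a library) in hearts and 0 in jejuna, and the brush border gene Vil1 0.170 in hearts and 1849 in jejuna. The steroid-producing enzymes Cyp11b1 and Cyp11b2 of the adrenal cortex had a median of 0 in both tissues. Some libraries stood apart. In experiment 1, the heart of female naproxen mouse 3 had a summed neutrophil marker level of 290.5 CPM, where the median of its group was 4.61, and the heart of male control mouse 10 had 21.2, where the median was 2.50. Among jejuna, 10 libraries had more than 1000 CPM of the ileal bile acid genes Fabp6 and Slc10a2, with 1268 as the lowest, while every other jejunum had at most 142. Of these, 3 belonged to dissection batch 1 and 7 to batch 2, and they came from 3 naproxen, 3 tryptophan, 2 naproxen with tryptophan, 1 control and 1 celecoxib mice. In whole tissue, fewer cells of a type and less RNA per cell cannot be told apart.

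On the GRCm38 assembly, all 9 genes are annotated as protein coding. Fkbp5 spans chr17:28399094-28517527 on the minus strand and Cdkn1a chr17:29090976-29100727 on the plus strand. Tsc22d3 spans chrX:140539528-140600659 (minus), Zbtb16 chr9:48654297-48836222 (minus), Sgk1 chr10:21882184-21999903 (plus) and Klf9 chr19:23141226-23168134 (plus). Mt2 at chr8:94172664-94173568 and Mt1 at chr8:94179082-94180327 are neighbours on the plus strand.

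RefSeq start windows (GRCm38.p6, 250 bases before to 50 after each start) were found for 7 of the 8 genes looked up (Nr3c1 was not), all but Zbtb16, and searched on both strands for the receptor's palindromic core, which is GNACA and TGTNC parted by NNN, and for the core of metal response elements, TGCACNC or TGCGCNC. The palindrome was present in 1 Mt1 window and in 1 of 6 Sgk1 windows, and in 0.475% of all 32851 windows. The metal core was present 4 times in the Mt2 window and 3 times in the Mt1 window, and 1.97% of all windows held at least 3. The windows of Fkbp5, Klf9, Tsc22d3 and Cdkn1a held neither, which says only that these letters are absent from these windows. A match describes the letters and is not a bound site. The 3 windows are shown to 30 bases after the start because they hold these matches, with the metal core in capitals for Mt2 (chr8:94172368-94172647, plus strand) and Mt1 (chr8:94178839-94179118, plus strand) and the palindrome in capitals for Sgk1 (chr10:21993640-21993919, plus strand). The Mt1 palindrome starts 94 bases before the start and is left in lower case; the Sgk1 palindrome starts 188 bases before it.
Mt2: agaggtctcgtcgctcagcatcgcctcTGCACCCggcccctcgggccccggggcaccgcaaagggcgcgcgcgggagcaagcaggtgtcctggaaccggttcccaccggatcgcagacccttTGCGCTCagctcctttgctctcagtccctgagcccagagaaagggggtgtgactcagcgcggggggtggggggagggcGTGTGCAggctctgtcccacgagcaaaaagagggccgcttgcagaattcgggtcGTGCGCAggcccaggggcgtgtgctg
Mt1: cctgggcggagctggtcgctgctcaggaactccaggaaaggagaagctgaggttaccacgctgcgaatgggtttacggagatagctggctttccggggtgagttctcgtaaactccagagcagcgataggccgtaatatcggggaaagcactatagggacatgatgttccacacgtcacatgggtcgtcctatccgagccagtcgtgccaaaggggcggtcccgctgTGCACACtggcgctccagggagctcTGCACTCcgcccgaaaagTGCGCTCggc
Sgk1: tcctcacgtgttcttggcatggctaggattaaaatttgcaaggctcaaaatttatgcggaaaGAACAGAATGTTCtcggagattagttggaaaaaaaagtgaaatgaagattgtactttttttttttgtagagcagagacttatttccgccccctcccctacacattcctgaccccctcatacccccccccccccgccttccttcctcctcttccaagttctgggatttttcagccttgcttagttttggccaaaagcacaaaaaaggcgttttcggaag

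Baseline levels were first described in the control hearts, brought to 1 scale over the 26 control libraries. The level of Mt1, a zinc-binding metallothionein, was 11.7 to 19.0 CPM in the 5 females and 14.9 to 32.1 in the 5 males of experiment 1, 32.7 to 57.3 in experiment 2 and 56.3 to 81.5 in experiment 3. The uninjected and the injected control hearts did not overlap for Mt1, and 7.71% of all 16580 genes were likewise higher without overlap. Its neighbour Mt2 had medians of 1.85, 3.39, 7.39 and 10.7 CPM in the same order, with uninjected males and experiment 2 overlapping. Nr3c1 went the other way, at 81.3 to 134.6 CPM in the uninjected and 53.4 to 80.8 CPM in the injected control hearts, again without overlap, as did 4% of all genes.

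Zbtb16, a zinc finger transcription factor, and Fkbp5, a co-chaperone that restrains the receptor, were most abundant in the control hearts of experiment 2. The Zbtb16 level was 20.2 to 37.8 CPM in uninjected females, 19.9 to 62.6 in uninjected males, 54.3 to 208 in experiment 2 and 28.4 to 91.0 in experiment 3. Fkbp5 ranged from 9.02 to 14.5, 11.3 to 43.0, 16.9 to 53.3 and 14.9 to 37.0 CPM in that order. The uninjected females lay wholly below experiment 2 for 4 of the 9 genes (Zbtb16, Fkbp5, Mt1 and Mt2), as for 13.2% of all genes, and wholly below experiment 3 for 3 (Fkbp5, Mt1 and Mt2), as for 19% of all genes. Since cohort and injection coincide, these levels are a description.

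Per kilobase of merged exon, the control hearts of experiment 3 gave the order Mt1 (54.8 CPM per kb), Klf9 (30.5), Tsc22d3 (26.5), Mt2 (19.1), Zbtb16 (9.91), Nr3c1 (9.05), Sgk1 (8.54), Cdkn1a (3.97) and Fkbp5 (2.30). In uninjected control females Klf9 came first with 33.4 CPM per kb and Mt1 stood at 11.1, behind Klf9, Tsc22d3 and Nr3c1. In control jejuna the order was led by Sgk1, a kinase that supports sodium uptake in epithelia, with 81.7 CPM per kb, then Tsc22d3 (30.5), Nr3c1 (30.2), Mt1 (29.9), Klf9 (15.6), Mt2 (15.2), Cdkn1a (14.8), Zbtb16 (6.41) and Fkbp5 (4.95). Tsc22d3, Nr3c1 and Mt1 in the jejunum, and Klf9, Mt2 and Cdkn1a, lay close together within that order.

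**Figure D1:**
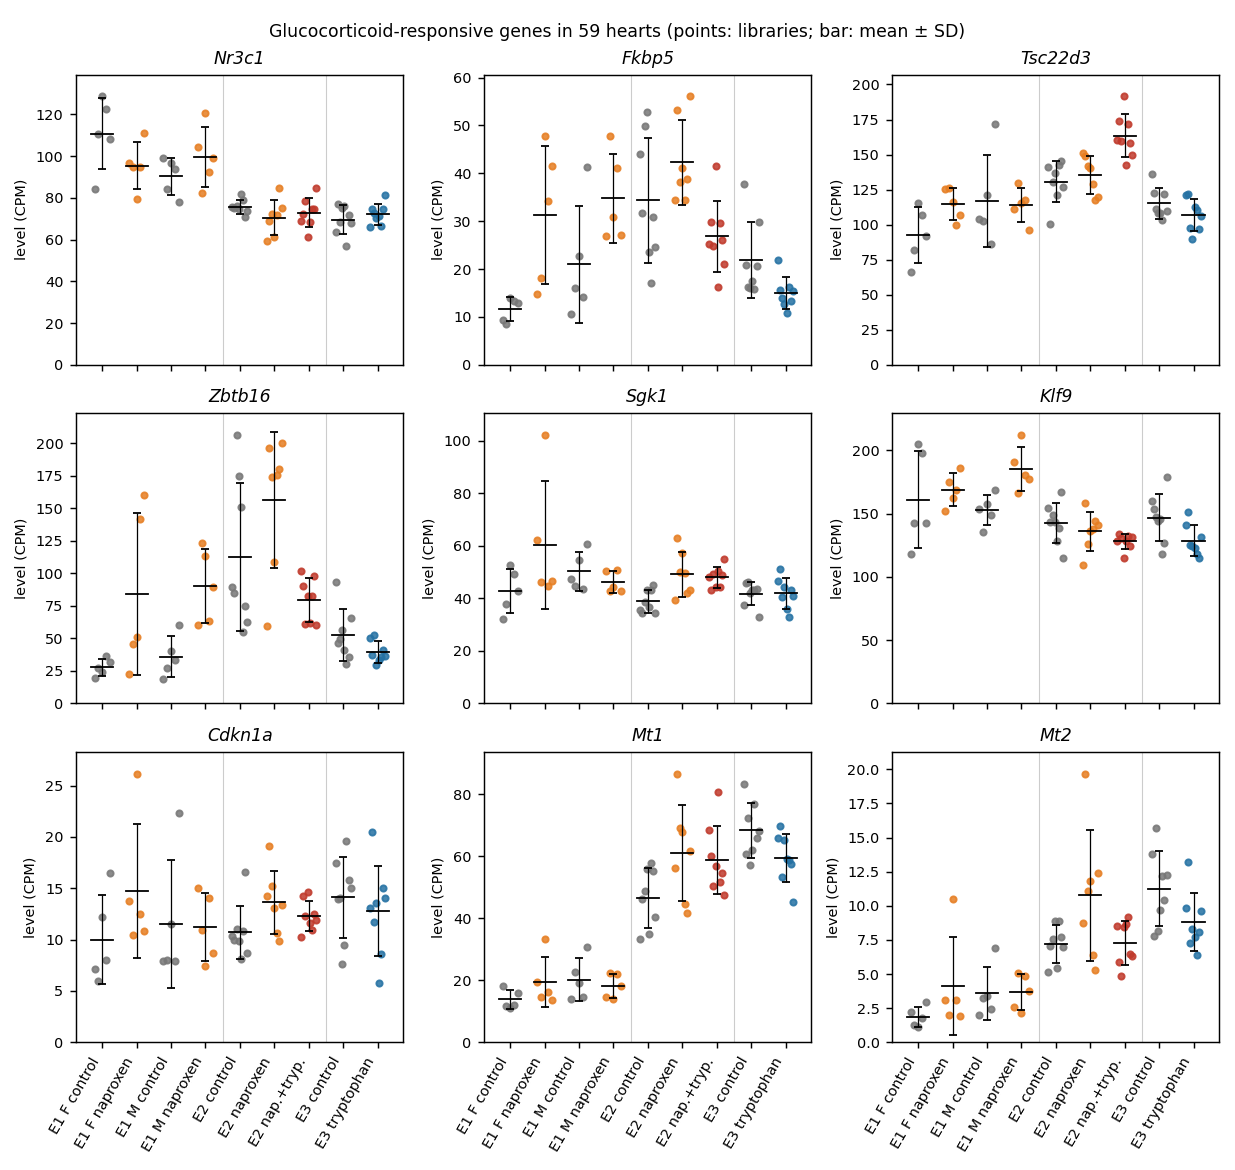
CPM of the 9 genes (vertical axes) in each of 59 heart libraries, by group (horizontal axis; E1, E2 and E3 are experiments 1 to 3, F female, M male), with bars for the mean and SD. Zbtb16 reaches 206 and Fkbp5 56.2 CPM in experiment 2, and Mt1 is lowest in experiment 1.

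Naproxen in uninjected females went with more Fkbp5 and Zbtb16 in the heart than control chow, by 2.69-fold and 3.03-fold, but neither gene passed the test across all genes. Fkbp5 was 9.33, 8.61, 13.9, 13.3 and 13.0 CPM in the 5 control females and 14.8, 18.1, 47.8, 34.2 and 41.5 CPM in the 5 naproxen females. Every naproxen heart lay above every control heart, a separation in that direction that 0.383% of all genes showed. The difference was 1.43 ± 0.35 (SE) on the log2 scale (edgeR's quasi-likelihood test, adjusted p = 0.314).

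Zbtb16 was 19.3, 27.6, 24.1, 36.2 and 31.7 CPM in control females and 22.5, 46.0, 50.7, 142 and 160 CPM in naproxen females. The groups overlapped through naproxen mouse 1 alone, and mice 4 and 5 stood far above the rest. The log2 difference was 1.60 ± 0.43 (edgeR, adjusted p = 0.406). Sgk1 (log2 difference 0.49 ± 0.19, adjusted p = 0.63) and Mt2 (1.14 ± 0.45, adjusted p = 0.649) were higher too, with the highest value of both in mouse 3, at 102 CPM of Sgk1 and 10.5 CPM of Mt2. The Mt2 groups overlapped, at 1.10 to 2.91 CPM in control and 1.899 to 10.5 CPM in naproxen females.

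Of the 9 genes, 0 were called at an adjusted p of 0.05 in females by edgeR and 2, Fkbp5 and Zbtb16, by DESeq2, while edgeR called 0.0132% of 15152 genes and DESeq2 57 of 16239. An unadjusted p under 0.05 was reached by 4 of the 9 and by 7.14% of all genes. The median difference over the 9 was 0.49, with 8 positive, and that over all genes was -0.02, with 45.9% positive. Nr3c1 was the single gene with a negative difference, -0.22 ± 0.12. Without female mouse 3 and male control 10, the log2 difference in females was 1.26 for Fkbp5 (adjusted p = 0.331), 1.76 for Zbtb16 (adjusted p = 0.409), 0.25 for Sgk1 and 0.47 for Mt2. Of the other cell types followed, 6 erythroid marker genes summed to 711 to 1831 CPM in control and 1076 to 15518 CPM in naproxen females, and 6 neutrophil markers to 1.80 to 14.8 and 1.99 to 290.5 CPM. Of 17 circadian clock genes, edgeR called 0 here and DESeq2 called Arntl and Per2, while 9 had an unadjusted p under 0.05 and 12 were positive (median 0.18). The part of these markers and of the clock genes in the result was not tested.

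In uninjected males, Zbtb16 and Fkbp5 were again the genes furthest above control, by 2.50-fold and 1.66-fold, without passing the test. Zbtb16 was 18.8, 27.1, 40.1, 33.6 and 60.2 CPM in control males and 60.2, 123, 113, 63.6 and 89.8 CPM in naproxen males. The groups touched without overlapping, which 1.98% of all genes did in that direction, and the log2 difference was 1.32 ± 0.43 (edgeR, adjusted p = 0.437). Fkbp5 was 10.6, 16.1, 22.8, 14.1 and 41.3 CPM in control males and 26.9, 47.8, 30.8, 41.2 and 27.1 CPM in naproxen males. The control value of 41.3, in mouse 10, exceeded 4 of the 5 naproxen values. The 4 macrophage markers followed summed to 39.24 to 64.6 CPM in control and 25.3 to 39.17 CPM in naproxen males. These ranges nearly touched, and 1.12% of single genes were lower without overlap in this comparison. The 6 erythroid markers summed to 1398 to 4370 and 1338 to 12977 CPM. The part of both marker sets in these results was not tested.

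The male Fkbp5 difference was 0.73 ± 0.34 (edgeR, adjusted p = 0.643) and, without the hearts of female 3 and male control 10, 1.12 ± 0.29 (adjusted p = 0.572). Mouse 10 was also the highest control male in Tsc22d3 (172 CPM, the others 86.3 to 121) and Cdkn1a (22.4, the others 7.91 to 11.5). The same heart was highest in Zbtb16, Sgk1, Klf9, Mt1 and Mt2 and lowest in Nr3c1 (78.1 CPM). Of the 9 genes, edgeR called 0 and DESeq2 0, an unadjusted p under 0.05 was reached by 3 (7.68% of all genes), and edgeR called 0% of all genes. Klf9, a Krüppel-like factor that responds quickly to corticosteroids, was the third, at 0.28 ± 0.12 (adjusted p = 0.597). The median over the 9 was 0.04, with 5 positive, and -0.01 over all genes.

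The naproxen differences of males and females were compared directly. Male chow held naproxen at 1610 ppm and female chow at 1323 ppm, so dose changed along with sex here. The separate parts of sex and dose were not tested. The male difference was smaller by 0.70 ± 0.49 for Fkbp5 (interaction -0.70, adjusted p = 0.759) and by 0.27 for Zbtb16 (-0.27 ± 0.60, adjusted p = 0.895). None of the 9 passed (0 by edgeR and by DESeq2, 2 at an unadjusted p under 0.05, beside 5.05% of all genes), and edgeR called 0% of all genes. Control males had a higher Fkbp5 level than control females by 0.85 ± 0.35 (adjusted p = 0.594), and by 0.49 without male control 10 and female naproxen 3. In that comparison 0 of the 9 were called by either tool, 5 had an unadjusted p under 0.05 (8.22% of all genes), and 0.152% of all genes were called.

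With PBS injections, in experiment 2, naproxen hearts differed less from their controls in Fkbp5 and Zbtb16. Zbtb16 was 54.7 to 206 CPM (median 87.2) in control and 59.5 to 200 CPM (median 176) in naproxen hearts. The ranges were nearly the same, and the difference was 0.48 ± 0.28 (edgeR, adjusted p = 0.9996). Fkbp5 was 17.1 to 52.8 CPM (median 31.3) in control and 34.4 to 56.2 CPM (median 38.7) in naproxen hearts, a difference of 0.30 ± 0.21. Of the 9 genes, 0 were without overlap in this comparison, beside 0.0311% of all genes higher and 0.0124% lower.

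Sgk1 gave the smallest adjusted p of the 9 in that comparison. Its level was 34.5 to 44.9 CPM (median 37.6) in control and 39.2 to 62.9 CPM (median 49.5) in naproxen hearts, which overlapped, and the difference was 0.34 ± 0.09 (edgeR, adjusted p = 0.693). Mt2 (0.57 ± 0.21), Mt1 (0.40 ± 0.15) and Cdkn1a, which encodes the cell cycle inhibitor p21 (0.35 ± 0.14), were higher too, each with an adjusted p of 0.9996. Of the 9, 0 were called by edgeR and by DESeq2 and 4 had an unadjusted p under 0.05, beside 0% of all genes called and 3.63% with an unadjusted p under 0.05. The median over the 9 was 0.34, with 7 positive, and 0.01 over all genes, with 52.3% positive. Neutrophil markers summed to 0.772 to 9.21 CPM in these controls and 5.98 to 39.9 CPM in the naproxen hearts, and their part in the result was not tested.

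Pooled over the 35 control and naproxen hearts of experiments 1 and 2, with the 3 cohort and sex strata as blocks, Zbtb16 was 1.04 ± 0.24 above control (edgeR, adjusted p = 0.0819). Fkbp5 missed the threshold as well (adjusted p = 0.153), and both had an adjusted p under 0.05 in DESeq2, which called 50 of 17685 genes. Without the hearts of female naproxen 3 and male control 10, the values were 1.13 ± 0.25 for Zbtb16 (adjusted p = 0.0704) and 0.78 ± 0.17 for Fkbp5 (adjusted p = 0.0656). Mt2 (0.59), Mt1 (0.28), Cdkn1a (0.31) and Sgk1 (0.26) were higher, and Tsc22d3 (0.11), Klf9 (0.08) and Nr3c1 (-0.06) near 0. Of the 9, 0 were called and 5 had an unadjusted p under 0.05 (7.1% of all genes), and 0.089% of 15738 genes were called. The naproxen difference was smaller in the injected than in the uninjected females by 1.17 ± 0.42 for Fkbp5 (difference -1.17) and by 1.15 ± 0.54 for Zbtb16 (-1.15). In edgeR both had an adjusted p of 0.9996, 0 of the 9 were called by either tool (2 at an unadjusted p under 0.05, 3.65% of all genes), and 0% of all genes were called.

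**Figure D2:**
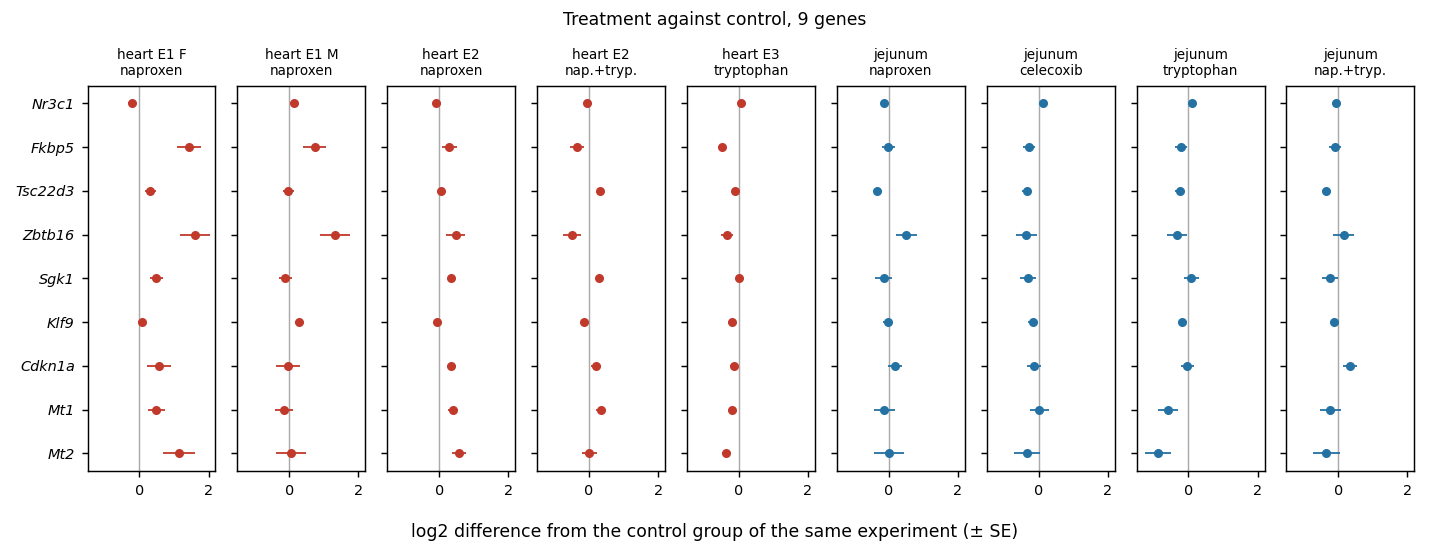
Log2 difference from control (horizontal axes), with the standard error as a bar, for the 9 genes (vertical axis) in each of 9 treatment comparisons. In hearts, Fkbp5 and Zbtb16 lie to the right of 0 for naproxen alone and to the left of 0 where tryptophan was injected, and none of the differences passed the test across all genes.

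Naproxen with tryptophan was set against the same 8 controls of experiment 2, so its values share those libraries with the naproxen comparison above. Here Tsc22d3, which encodes the anti-inflammatory leucine zipper protein GILZ, came closest to the threshold, while Fkbp5 and Zbtb16 lay below control. Tsc22d3 was 101 to 145 CPM (median 134) in control and 142 to 192 CPM (median 160.1) in naproxen with tryptophan hearts, a small overlap, and the difference was 0.32 ± 0.08 (edgeR, adjusted p = 0.0716). Sgk1 was 0.30 ± 0.09 above control (adjusted p = 0.11), with 43.2 to 55.1 CPM (median 48.7) against 34.5 to 44.9 CPM in control.

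Without 1 library, naproxen with tryptophan heart 8 or naproxen heart 6, the adjusted p of Tsc22d3 was 0.0469 or 0.0439, and DESeq2 called Tsc22d3 and Sgk1 among 468 of 13418 genes. Of 27 alternative fits by edgeR or DESeq2, 3 called Tsc22d3 and 1 called Sgk1. The adjusted p of Tsc22d3 reached 0.135 among them. Zbtb16 (-0.49 ± 0.27, adjusted p = 0.347) and Fkbp5 (-0.36 ± 0.21, adjusted p = 0.379) did not pass. Of the 9, 0 were called by edgeR and 4 had an unadjusted p under 0.05, beside 0.255% of 16085 genes called and 17.2% with an unadjusted p under 0.05. The groups of 0 of the 9 were without overlap, beside 0.236% of all genes higher and 0.0746% lower. The median over the 9 was 0.01, with 5 positive.

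The added tryptophan was compared with naproxen alone in the same model. Zbtb16 was 59.9 to 102 CPM (median 82.3) with tryptophan and 59.5 to 200 CPM (median 176) without, and the difference was -0.97 ± 0.28 (edgeR, adjusted p = 0.269). Fkbp5 was 16.3 to 41.5 CPM (median 25.6) with and 34.4 to 56.2 CPM (median 38.7) without, a difference of -0.66 ± 0.21 (adjusted p = 0.352). Both pairs of groups overlapped, as did those of all 9 genes (0 without overlap, beside 0.0435% of all genes higher and 0.0622% lower), and the Zbtb16 values above 102 CPM seen with naproxen alone were absent when tryptophan was added.

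Mt2 (-0.56 ± 0.21, adjusted p = 0.415) was lower too, Mt1 stood at -0.06, and Tsc22d3 was higher (0.27 ± 0.08, adjusted p = 0.269). Of the 9, 0 were called by edgeR, 1 (Zbtb16, adjusted p = 0.0484) by DESeq2 and 4 had an unadjusted p under 0.05, beside 0.0933% of all genes called and 9.8% with an unadjusted p under 0.05. DESeq2 called 88 of 16832 genes. The median over the 9 was -0.09, with 2 positive, and 0.00 over all genes.

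Tryptophan alone, in the separate cohort of experiment 3, gave lower Fkbp5 than control, again short of the threshold across all genes. Fkbp5 was 15.9 to 37.9 CPM (median 19.0) in 8 control and 10.8 to 21.9 CPM (median 14.7) in 8 tryptophan hearts. The groups overlapped, and control hearts held the highest values. The difference was -0.50 ± 0.12 with dissection batch as a block (edgeR, adjusted p = 0.9996), and it was negative in each of 4 batches, from -0.86 to -0.34.

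Klf9 (-0.19 ± 0.05), Mt2 (-0.36 ± 0.12) and Mt1 (-0.20 ± 0.08) were lower as well, each with the same adjusted p. The Klf9 ranges were 118 to 179 CPM in control and 115 to 151 CPM with tryptophan. Within batches, the difference was negative in all 4 for Mt1 and Mt2 and in 3 of 4 for Klf9, where the remaining one was 0.00. Zbtb16 (-0.34 ± 0.17), Tsc22d3 (-0.11), Cdkn1a (-0.15), Sgk1 (0.00) and Nr3c1 (0.06) had unadjusted p-values above 0.05. The median over the 9 was -0.19, with 1 positive, and 0.00 over all genes, with 52% positive. Of the 9, 0 were called by edgeR, 1 (Fkbp5, adjusted p = 0.0219) by DESeq2 and 4 had an unadjusted p under 0.05, beside 0% of 15805 genes called and 2.9% with an unadjusted p under 0.05. DESeq2 called 12 of 19834 genes.

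Dissection batch was then tested in the same 16 hearts, as an F test over the 4 batches. Cdkn1a was the 1 of the 9 that passed (edgeR, adjusted p = 0.0108), beside 0.702% of all genes. Its mean level was 7.87 ± 1.58 CPM (SD, n = 4, range 5.80 to 9.495) in batch 1 against 16.1, 16.5 and 13.3 CPM in batches 2 to 4. Without control heart 4 its adjusted p was 0.055. Fkbp5 averaged 26.3 CPM in batch 3 and 15.1 to 16.3 CPM in the others (adjusted p = 0.0667), and Klf9 had an adjusted p of 0.0684. The median range over batches was 0.35 log2 units for the 9 genes and 0.21 for all genes. Erythroid markers also differed, with a median of 6016 CPM in batch 2 and 2105 to 2717 CPM in the others, and their part in the result was not tested.

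In the jejunum, 0 of the 9 passed the threshold with any treatment, and with naproxen Fkbp5 was level with control while Zbtb16 lay above it. Fkbp5 was 28.9 to 78.8 CPM (median 45.4) in control, 31.9 to 62.9 (median 45.4) with naproxen, 17.7 to 61.3 (median 39.5) with celecoxib, 27.01 to 80.2 (median 32.8) with tryptophan and 33.7 to 57.7 (median 41.8) with naproxen and tryptophan. All 5 groups overlapped, and the naproxen difference was -0.01 ± 0.18. Zbtb16 was 18.8 to 48.1 CPM (median 29.6) in control and 16.9 to 106 CPM (median 40.0) with naproxen, a difference of 0.51 ± 0.31 (edgeR, adjusted p = 0.398). Without the 10 ileum-marked jejuna it was 1.15 ± 0.34 (adjusted p = 0.0734), and without naproxen jejunum 4 as well 0.86 ± 0.37 (adjusted p = 0.557). The naproxen difference of Nr3c1 was -0.13 in all jejuna, -0.34 ± 0.12 without the 10 (adjusted p = 0.0911) and -0.18 ± 0.10 without jejunum 4 as well (adjusted p = 0.578).

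Tsc22d3 lay below control with all 4 treatments, which share their 8 control libraries. The Klf9 differences ran from -0.17 to -0.03 and those of Fkbp5 from -0.27 to -0.01. Both genes were near level with control under naproxen, where 6 of 45 alternative fits were positive for Klf9 and 10 of 45 for Fkbp5. Tsc22d3 was 116 to 165 CPM (median 127) in control, 77.1 to 143 (median 109) with naproxen, 74.1 to 132 (median 106) with celecoxib, 102 to 121 (median 112) with tryptophan and 61.9 to 133 (median 107.5) with naproxen and tryptophan. Each treated group overlapped the controls. The differences were -0.33 ± 0.13 for naproxen (edgeR, adjusted p = 0.232), -0.35 ± 0.12 for celecoxib (adjusted p = 0.957), -0.25 for tryptophan (adjusted p = 0.999) and -0.35 ± 0.13 for naproxen with tryptophan (adjusted p = 0.728). It was negative within all 4 dissection batches for naproxen and for tryptophan, and within 3 of 4 for celecoxib and for the combination. Without the 10 ileum-marked libraries the differences were -0.22, -0.33, -0.26 and -0.30. The 4 T cell markers followed summed to 14.9 to 21.7 CPM in control, 9.69 to 16.6 with naproxen, 8.21 to 19.0 with celecoxib, 6.26 to 16.6 with tryptophan and 6.65 to 36.3 with naproxen and tryptophan, with medians of 18.7, 12.7, 12.9, 13.8 and 10.9 CPM. Their part in the Tsc22d3 result was not tested.

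The metallothioneins lay below control with tryptophan, and both genes were uneven within groups. Mt1 was 17.5 to 61.3 CPM (median 32.8) in control and 13.9 to 76.4 CPM (median 21.5) with tryptophan, a difference of -0.59 ± 0.29 (edgeR, adjusted p = 0.999). Mt2 was 3.43 to 13.8 CPM (median 9.75) in control and 2.69 to 19.2 CPM (median 4.03) with tryptophan (-0.88 ± 0.38, adjusted p = 0.999). Both were lower in 3 of 4 dissection batches and higher in the remaining one, with Mt1 from -0.95 to 0.19 and Mt2 from -1.26 to 0.24. Ileum-marked libraries made up 3 of the 8 tryptophan and 1 of the 8 control jejuna. Over the alternative fits, the difference ran from -0.75 to -0.40 for Mt1 and from -1.06 to -0.56 for Mt2. These fits include those without the 10 ileum-marked jejuna. Naproxen jejunum 3 reached 151 CPM of Mt1 and 57.5 CPM of Mt2, the highest values of both genes in any library.

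For the 4 comparisons with control, edgeR and DESeq2 each called 0 of the 9, and the number with an unadjusted p under 0.05 was 1 for naproxen (16% of all genes), 2 for tryptophan (2.65%), 1 for naproxen with tryptophan (5.98%) and 1 for celecoxib (4.37%). Over all genes, edgeR called 0.0116% for naproxen and 0% for the other three. The medians over the 9 were -0.03, -0.22, -0.12 and -0.27 in the same order, with 3, 2, 2 and 2 positive, where 49.1 to 53.5% of all genes were positive. Tryptophan added to naproxen and the naproxen by tryptophan interaction called 0 of the 9 by either tool, 0 at an unadjusted p under 0.05 (3.66% and 3.4% of all genes), and 0% of all genes.

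Naproxen and celecoxib, a non-selective and a cyclooxygenase 2 selective inhibitor given at different doses of 1323 and 550 ppm, were also set side by side. Zbtb16 was 16.9 to 106 CPM with naproxen and 12.8 to 48.6 CPM with celecoxib (median 24.3), a difference of 0.86 ± 0.31 (edgeR, adjusted p = 0.157) that was positive in 4 of 4 batches. Nr3c1 was 144 to 249.7 CPM with naproxen and 227 to 276 CPM with celecoxib (-0.27 ± 0.10, adjusted p = 0.162). Both pairs overlapped, 0 of the 9 were called by either tool, 2 had an unadjusted p under 0.05 (18.7% of all genes), and 0% of all genes were called.

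Without the 10 ileum-marked jejuna, Zbtb16 (1.36 ± 0.34) and Nr3c1 (-0.46 ± 0.12) had an adjusted p of 0.0331 in this comparison, where 4.86% of 17316 genes were called. Both calls were lost with naproxen jejunum 4 left out too: the values were 1.07 ± 0.37 (adjusted p = 0.36) and -0.31 ± 0.10 (adjusted p = 0.312), and 0 of 17491 genes passed. As 3 of the 7 naproxen jejuna were already left out, this fit cannot separate the weight of that library from a loss of power. Jejunum 4 had 106 CPM of Zbtb16 and 144 CPM of Nr3c1. Its smooth muscle markers summed to 3699 CPM, against a median of 1702 in its group, and their part in the result was not tested.

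Metallothioneins, Fkbp5, Cdkn1a and Sgk1 differed between dissection batches in the jejunum. Of the 9, 5 were called by the F test over 4 batches, and so were 19.8% of 17185 genes. Mt2 averaged 16.9 CPM in batch 3 against 5.42 to 6.24 CPM in the others (edgeR, adjusted p = 0.0042), and Mt1 59.04 CPM against 26.0 to 31.1 CPM (adjusted p = 0.00445). The Mt2 median was 13.4 CPM in batch 3 and 5.05 to 5.89 CPM in the others. For Mt1 it was 47.4 CPM against 25.9 to 28.4 CPM. Batch 3 holds naproxen jejunum 3, with 57.5 CPM of Mt2 and 151 CPM of Mt1. Fkbp5 was also highest in batch 3, at 58.9 CPM against 35.9 to 41.1 CPM (adjusted p = 0.00538).

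Cdkn1a was highest in batch 1 (72.9 CPM, lowest 38.6 in batch 2, adjusted p = 0.00685) and Sgk1 lowest in batch 2 (259 CPM, the others 363 to 441, adjusted p = 0.0337). The Sgk1 call was lost in 8 fits that each left out 1 library, with adjusted p from 0.0502 to 0.0805. Without the 10 ileum-marked jejuna, Fkbp5 averaged 34.2, 35.4, 58.9 and 41.1 CPM in batches 1 to 4 and Mt2 6.45, 7.51, 16.9 and 6.24 CPM, with 7, 3, 10 and 8 libraries. In that smaller set 0 of the 9 were called, with adjusted p of 0.288 for Fkbp5, 0.364 for Mt1 and for Mt2, 0.385 for Cdkn1a and 0.651 for Sgk1, and 0% of all genes were called. Leaving out naproxen jejunum 4 as well, 28 genes (0.16%) were called and again 0 of the 9.

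**Figure D3:**
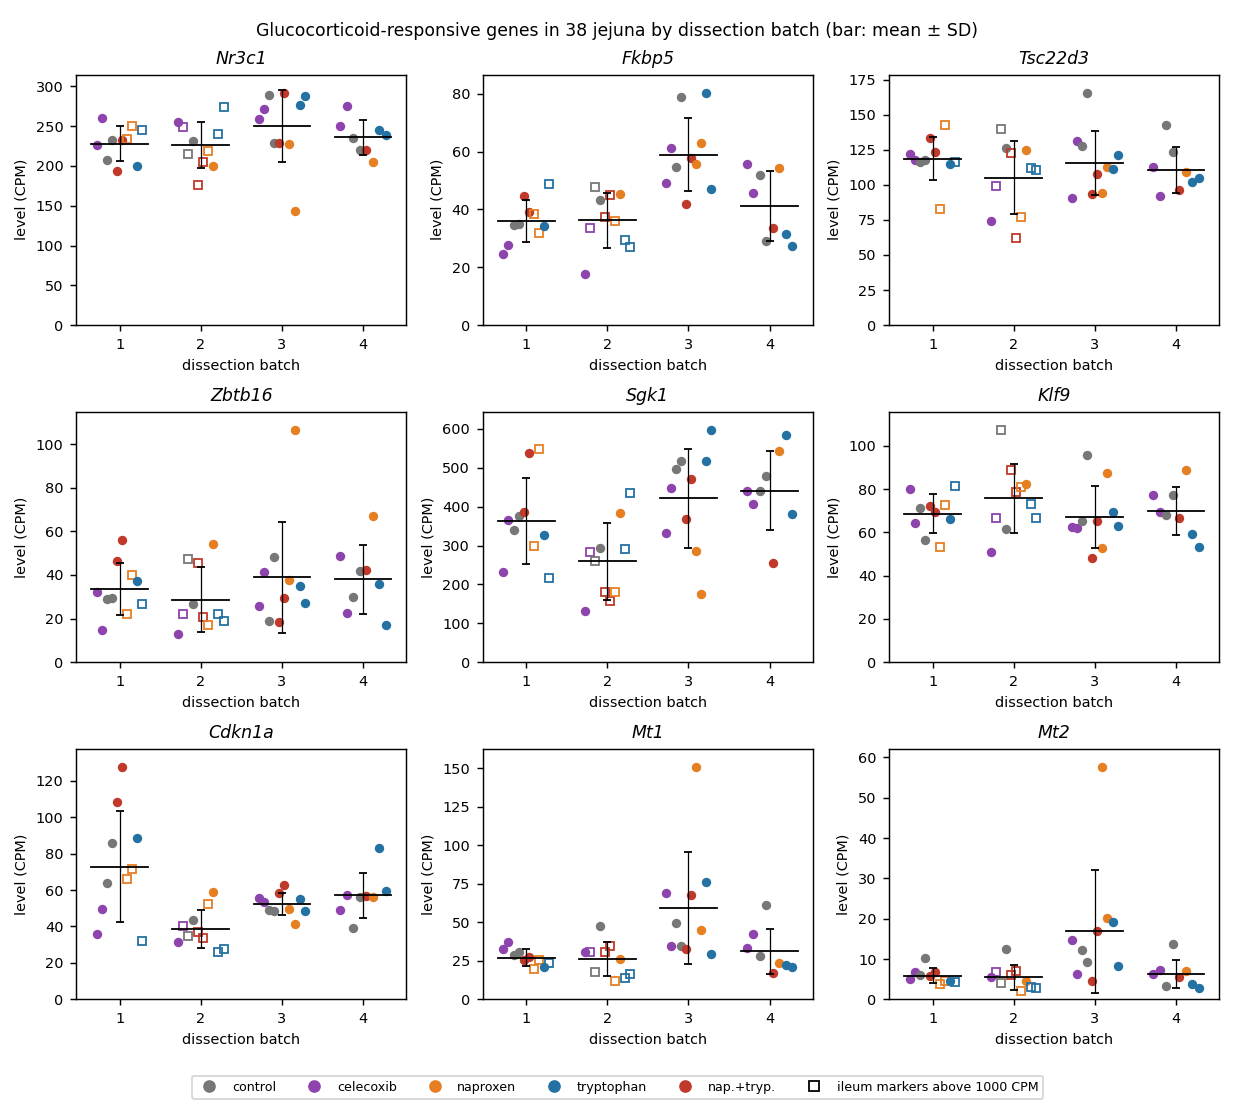
CPM of the 9 genes (vertical axes) in 38 jejuna by dissection batch (horizontal axis), coloured by treatment, with open squares for the 10 libraries with more than 1000 CPM of ileum markers and bars for the mean and SD. Fkbp5, Mt1 and Mt2 are highest in batch 3, which holds no open squares.

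Spread between libraries of 1 group separated the genes. The SD of log2 CPM about the group mean (and about the batch mean in experiments 3 and 4) was 0.73, 0.58, 0.35 and 0.63 for Zbtb16 in experiments 1 to 4, and 95.4%, 90.4%, 81% and 83.4% of all tested genes had a smaller one. Mt2 stood at 94.8%, 82.1%, 72.4% and 91.2%, and Fkbp5 at 89.9%, 82.6%, 70.4% and 54.1%. The receptor gene was among the steadier ones, with an SD of 0.19, 0.13, 0.14 and 0.18, and 31.1%, 19.7%, 41.6% and 16.1% of genes below it. Klf9 (19.3 to 37.5%) and Tsc22d3 (29.4 to 52.7%) were also steady. Low-count genes such as Mt2 carry more counting error, and the percentiles were not matched for level.

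With group and batch means removed, the 36 pairs of the 9 genes were correlated over libraries, and p-values came from 100000 permutations within groups (smallest possible p = 1e-05, adjusted over 36 pairs). In 59 hearts, 17 pairs passed by Pearson's r (15 positive and 2 negative) and 13 by Spearman's rho. Correlations of this size were common among all genes: 18 of the 36 pairs had an absolute r of at least 0.336, the smallest that passed, and so did 30.5% of all pairs of 14950 genes. Mt1 and Mt2 were the closest pair, with r = 0.87 (permutation p = 1e-05, adjusted p = 0.00018) and rho = 0.83 (p = 1e-05). It was 0.95, 0.84 and 0.39 within experiments 1 to 3, and r = 0.83 without the 2 libraries farthest out.

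Fkbp5 and Zbtb16 varied together from heart to heart within treatment groups, with r = 0.64 (permutation p = 6e-05, adjusted p = 0.00054) and rho = 0.57 (p = 0.00011). The value was 0.69, 0.59 and 0.52 in the 3 experiments, 0.57 without the 2 farthest libraries and 0.67 without female naproxen 3 and male control 10. Sgk1 with Cdkn1a gave r = 0.62 (p = 9e-05) and rho = 0.52 (p = 0.00022), within experiments 0.74, 0.43 and 0.36, 0.53 without the 2 farthest and 0.48 without those 2 hearts. Leaving those 2 hearts out, 10 pairs passed instead of 17.

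Nr3c1 went against the metallothioneins in hearts and with Klf9. For Nr3c1 and Mt1, r was -0.68 (permutation p = 1e-05, adjusted p = 0.00018) and rho -0.70 (p = 1e-05), within experiments -0.84, -0.44 and -0.76, and -0.65 without the 2 farthest. For Nr3c1 and Klf9, r was 0.59 (p = 2e-05) and rho 0.54 (p = 0.00012), within experiments 0.71, 0.31 and 0.86, and 0.50 without the 2 farthest. Of 14949 genes, 1217 correlated more highly with Nr3c1 than Klf9 did and 366 more negatively than Mt1 did. The same relation seen from Mt1 had 17 genes more negative than Nr3c1.

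A measure of library composition moved with the same genes: against the mean log2 level of 83 ribosomal protein genes, Nr3c1 had r = -0.74 and rho = -0.75 and Klf9 r = -0.62 and rho = -0.67 (each permutation p = 1e-05 and adjusted p = 0.000135 over 27 relations), and -0.74 and -0.60 without the 2 farthest libraries. Mt1 had r = 0.42 and rho = 0.46 (adjusted p = 0.0122 and 0.00472), and 0.42 without the 2 farthest. Zbtb16 had r = -0.38 and rho = -0.34 (adjusted p = 0.0178 and 0.0529), and -0.37 without the 2 farthest. Against the share of mitochondrial reads, Mt1 had r = -0.49 and rho = -0.52 (adjusted p = 0.00342 and 0.00234), and -0.46 without the 2 farthest. Mt2 passed there by rho alone (r = -0.35, rho = -0.38, adjusted p = 0.0747 and 0.0386). The part of composition in the correlations among the 9 was not tested.

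**Figure D4:**
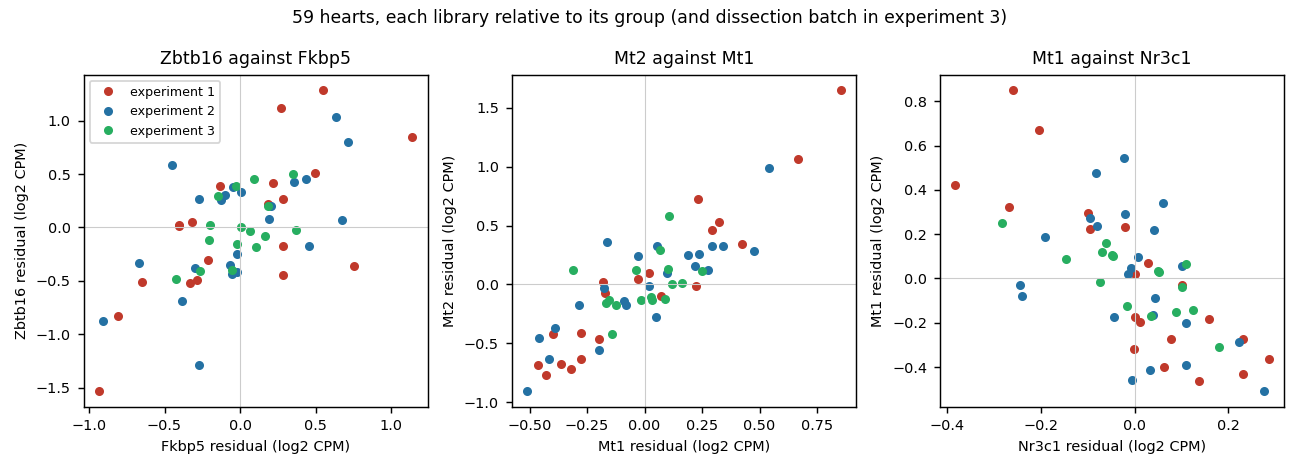
Residual log2 CPM after removal of group and batch means in 59 hearts, 1 point per library, coloured by experiment, for Zbtb16 against Fkbp5, Mt2 against Mt1 and Mt1 against Nr3c1. The first 2 panels slope upward (r = 0.64 and 0.87) and the last slopes downward (r = -0.68).

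In 38 jejuna 10 pairs passed by r (9 positive and 1 negative). These 10 had an absolute r of at least 0.46, as had 19.1% of all pairs of 17185 genes. Mt1 and Mt2 were again the closest, with r = 0.87 (permutation p = 1e-05) and rho = 0.80 (p = 1e-05), and r = 0.82 without the 2 farthest libraries. Zbtb16 went with Klf9 (r = 0.66, p = 3e-05; rho = 0.63, p = 3e-05; 0.68 without the 2 farthest; 0.71 without the ileum-marked libraries) and with Tsc22d3 (r = 0.63, p = 0.00041; rho = 0.66, p = 0.00014; 0.60; 0.56). Its relation with Fkbp5 was weaker, at r = 0.46 (p = 0.00292, adjusted p = 0.0164) and rho = 0.43 (p = 0.00773), 0.38 without the 2 farthest and 0.55 without the ileum-marked libraries.

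In jejuna, r was 0.01 for Nr3c1 with Mt1 and -0.38 for Nr3c1 with Klf9, and neither passed. Nr3c1 and Zbtb16 went opposite ways (r = -0.57, permutation p = 0.001; rho = -0.55, p = 0.00088; -0.47 without the 2 farthest), where 1733 of 17184 genes were more negative with Nr3c1 than Zbtb16 was, and without the ileum-marked jejuna r was -0.45 (adjusted p = 0.0984). Nr3c1 also moved with the share of mitochondrial reads (r = 0.57, rho = 0.59, adjusted p = 0.0367 and 0.00486, and 0.61 without the 2 farthest). Against library size it had r = 0.42 and rho = 0.42 (adjusted p = 0.0367 and 0.066), and 0.50 without the 2 farthest. By rho alone, Klf9 passed against the mitochondrial share (rho = -0.48) and Zbtb16 against the ribosomal protein genes (rho = -0.49), each with adjusted p = 0.0328. Whether the correlations differ between tissues was not tested.

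**Figure D5:**
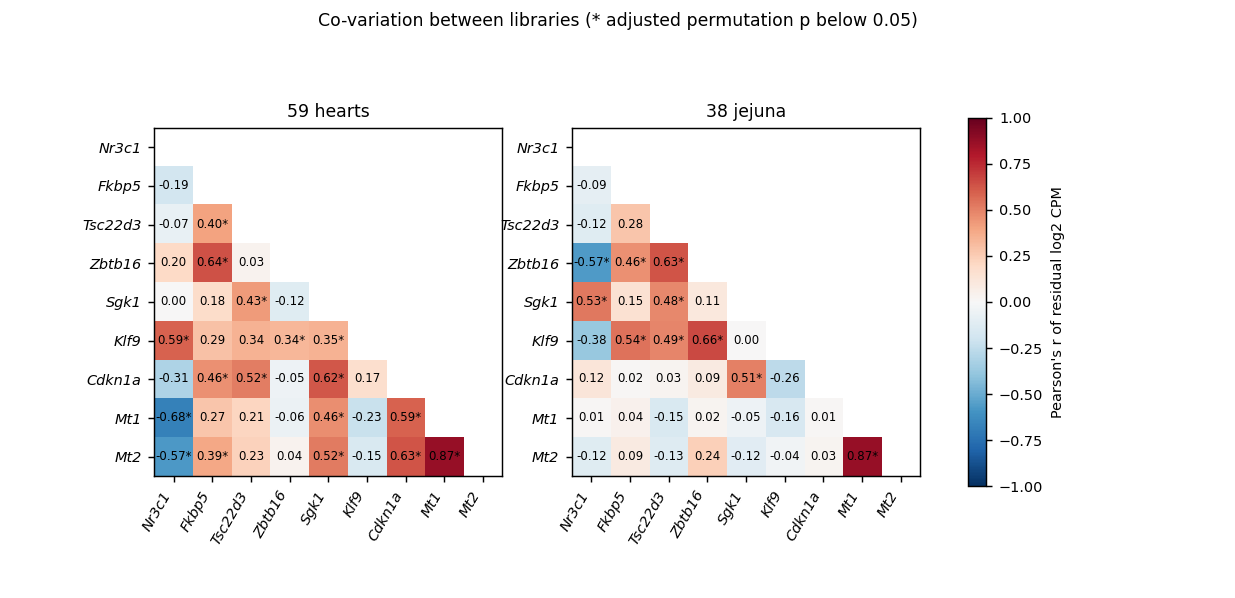
Pearson r of residual log2 CPM for the 36 pairs of the 9 genes, at left in 59 hearts and at right in 38 jejuna, with an asterisk where the adjusted permutation p is under 0.05. The Mt1 and Mt2 cell is the strongest in both tissues (0.87), and the Nr3c1 and Mt1 cell is negative in hearts and near 0 in jejuna.

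As a description, genes were ranked by likeness to Fkbp5 and Mt1 over the same residuals, all of which share library and depth. Over 59 hearts, the 5 outside the 9 most like Fkbp5 among 14949 genes were Fam107a (r = 0.80), Map3k6 (0.76), Fam117b (0.75), Mertk (0.74) and Hif3a (0.72), and Zbtb16 ranked 16th. Within experiments the Fam107a value ran from 0.14 to 0.87 and that of Hif3a from 0.50 to 0.77. After Mt2, those most like Mt1 were Lrg1 (0.83), Slc3a2 (0.75), Lrrc8a (0.73), the ribosomal protein gene Rplp2 (0.73) and Tinagl1 (0.72). Within experiments these ran from 0.35 to 0.87, 0.25 to 0.80, -0.01 to 0.83, 0.69 to 0.85 and 0.35 to 0.79 in that order. Predicted genes were left out. Over 38 jejuna the lists shared no gene with these: Ccl12 (0.62), Tsr2 (0.54), Dhh (0.53), Arc (0.52) and Zdhhc19 (0.52) for Fkbp5, and Usp49 (0.65), Nfkbiz (0.64), the iron and metal transporter gene Slc11a2 (0.60), Pfkl (0.59) and Pigu (0.59) for Mt1.

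Of 38 further glucocorticoid target genes, 36 were tested, and edgeR called 0 in any treatment, sex or cohort comparison. DESeq2 called Map3k6 and Foxo3 in uninjected naproxen females, Fbxo32 in males, Map3k6 in the pooled comparison, and Irs2 for naproxen with tryptophan and for tryptophan on naproxen. In uninjected naproxen females 26 of 36 were positive, with a median of 0.16, and 9 had an unadjusted p under 0.05, where 45.9% of all genes were positive and 7.14% had such a p. Map3k6, a stress kinase gene, had the smallest p there (1.41 ± 0.33, adjusted p = 0.251). In males 12 were positive (median -0.06; all genes, 47.1%) and 5 had an unadjusted p under 0.05 (7.68%). In injected naproxen females 27 were positive (median 0.08; all genes, 52.3%) and 1 had such a p (3.63%). Pooled, 28 were positive (median 0.09; all genes, 53.2%) and 7 had such a p (7.1%). With tryptophan alone in hearts 5 of 36 were positive (median -0.09; all genes, 52%) and 7 had an unadjusted p under 0.05 (2.9%), led by Arrdc2 (-0.32 ± 0.10, adjusted p = 0.9996). Added to naproxen, tryptophan left 14 positive (median -0.08; all genes, 48.8%) and 4 with an unadjusted p under 0.05 (9.8%), with Irs2, the insulin receptor substrate gene, at 1.36 ± 0.32 (adjusted p = 0.137). In jejuna 14, 11, 14 and 5 were positive with naproxen, tryptophan, their combination and celecoxib, where 53.3%, 49.3%, 53.5% and 49.1% of all genes were, and 1, 1, 3 and 1 had an unadjusted p under 0.05, beside 16%, 2.65%, 5.98% and 4.37%.

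Genes of the receptor's own machinery came next. Of 15 chaperone and cofactor genes, edgeR called 0 in any treatment comparison, with Hspa8, the constitutive Hsp70 gene, closest in naproxen with tryptophan hearts (0.29 ± 0.08, adjusted p = 0.0938) and in naproxen jejuna (-0.45 ± 0.12, adjusted p = 0.17). An unadjusted p under 0.05 was reached by 7 and 4 of the 15 in these comparisons, beside 17.2% and 16% of all genes, and DESeq2 called 3 (Hspa8, Dnaja1 and Stip1) of its 468 genes and 1 (Hspa8) of its 139. Of 8 or 9 tested corticosteroid synthesis, activation and transport genes, edgeR and DESeq2 called 0 in every treatment comparison. In naproxen females 1 had an unadjusted p under 0.05 (7.14% of all genes), Nr5a2 (-0.82 ± 0.28, adjusted p = 0.602). Of 8 or 9 tested metal response genes, both tools called 0 in every treatment comparison. In naproxen jejuna 2 of 9 were positive (median -0.05), where 53.3% of all genes were, and 1 had an unadjusted p under 0.05 (16% of all genes). That gene, Slc30a1, which exports zinc and is a target of Mtf1, stood at 0.43 ± 0.14 (edgeR, adjusted p = 0.197). Of 12 to 14 tested targets of p53, the best known activator of Cdkn1a, edgeR called 0 with any treatment and DESeq2 called Sesn1 in naproxen males and in the pooled comparison. Sesn1, a stress-induced gene, was 0.29 ± 0.07 above control in the pooled naproxen hearts (edgeR, adjusted p = 0.0708), and 1 of 14 had an unadjusted p under 0.05 there (7.1% of all genes) and 3 of 12 in males (7.68%).

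Of 8 to 10 tested genes of the acute phase and Stat3 signalling, edgeR called 0 with any treatment, and DESeq2 called Osmr for tryptophan on naproxen in hearts and Orm1 in naproxen jejuna and for naproxen against celecoxib. In uninjected naproxen females 7 of 8 were positive (median 0.42; all genes, 45.9%) and 3 had an unadjusted p under 0.05 (7.14% of all genes), with Stat3 itself at 0.35 ± 0.12 (adjusted p = 0.613). These values, and those of the further glucocorticoid targets in that group, include the heart of female naproxen mouse 3, which was high in neutrophil markers. The part of that heart in them was not tested. In the naproxen by tryptophan interaction in jejuna 10 of 10 were positive (median 1.03; all genes, 51.4%) and 4 had an unadjusted p under 0.05 (3.4%), with Socs3, a feedback inhibitor of cytokine signalling, at 0.92 ± 0.32 (adjusted p = 0.9996).

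Across jejunum dissection batches, 13 of the 36 other glucocorticoid targets were called, among them Anxa1, Mertk and Lcn2. So were 12 of 17 clock genes, among them Tef, Per3, Per2 and Ciart, and 6 of 9 metal response genes, among them Slc39a10, Slc30a1, Slc39a14 and Gclc, 4 of 9 corticosteroid synthesis, activation and transport genes, among them Hsd11b1, 5 of 10 acute phase and Stat3 genes, among them Cish, 4 of 14 p53 targets, among them Mdm2, and 2 of 15 chaperone and cofactor genes, Dnaja1 and Hsp90ab1, beside the 19.8% of all genes, a share that was 0% without the 10 ileum-marked jejuna. Across the heart batches of experiment 3 the clock genes Cry1, Per1 and Dbp and the targets Arrdc2, Fam107a and Per1 were called, with 1 p53 target, Trp53inp1, and 0 of the chaperone, corticosteroid, metal response and acute phase lists by edgeR (3, 3, 2 and 3 with an unadjusted p under 0.05, which 16.2% of all genes had, and 0, 2, 0 and 2 by DESeq2), beside the 0.702% of all genes.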

How the data were processed

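The authors deposited 1 table of estimated counts per gene for all 97 libraries, made with Salmon 1.9.0 and R 4.2.2 on GRCm38, per the submitters' processing notes; 24.7% of the values are not whole, and the sources used here do not state how transcripts became genes. The counts were rounded and tested with edgeR 4.0.16 in R 4.3.3 (count minimum 10, TMM scaling, robust quasi-likelihood F test, Benjamini-Hochberg adjustment over all tested genes), with 1 model per experiment, dissection batch as a block in experiments 3 and 4, and 1 pooled model. CPM use effective library sizes; log2 CPM used for spread and correlation have a prior count of 2. Changes are called at an adjusted p of 0.05. Scripts were tested on simulated data. Library pairs within groups differed beyond counting noise (lowest chi-square 15.6 per degree of freedom). Replicate numbers pair no samples.

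The 9 genes and the other lists were chosen with earlier results of these data known. All 9 are named throughout; from every other list, called genes with the smallest p (up to 4) or at most the 1 with the smallest p; for likeness, 5 genes, without predicted ones (Gm and Rik names). DESeq2 1.42.0, RLE scaling, no count filter, left-out libraries, a replicate block and no batch block were alternatives. Leaving out the 2 hearts, the 10 jejuna or naproxen jejunum 4 (in the comparisons that rest on them), and the ribosomal, mitochondrial and library size comparisons, were chosen after seeing the data. Single results of a few genes of the other lists are not reported here.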

Additional observations from a re-analysis of the deposited data

Results flagged for a closer look

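In 8 of 126 combinations of gene and group, 1 library lay far from the rest of its group by Dixon's gap test, where about 6.3 are expected at 1 in 20. For Mt1, jejunum celecoxib 5 had 68.9 CPM (next 42.5, median 34.1) and jejunum tryptophan 3 had 76.4 CPM (next 29.4, median 21.5). For Mt2, heart female naproxen 3 had 10.5 CPM (next 3.11), jejunum celecoxib 5 had 14.6 CPM (next 7.34), and jejunum naproxen with tryptophan 4 had 17.0 CPM (next 7.05). Celecoxib 5 stood apart in both metallothionein genes. For Nr3c1, jejunum control 3 was highest with 289 CPM (next 235), and jejunum naproxen 4 was lowest with 144 CPM (next 199). All jejuna named here came from dissection batch 3, where Mt1 and Mt2 were highest on average. The gap test did not remove batch, and the part of batch in these gaps was not tested. For Cdkn1a, control heart 7 of experiment 2 had 16.6 CPM (next 11.0, median 10.2).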

How the results depend on the processing

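DESeq2 called 2 of the 9 genes in uninjected naproxen females (Fkbp5, adjusted p = 0.0093, and Zbtb16, 0.0488), 2 in naproxen with tryptophan hearts (Tsc22d3, 0.00522, and Sgk1, 0.0306), 1 for tryptophan on naproxen, 1 for tryptophan alone in hearts, 2 in the pooled naproxen comparison (Zbtb16, 0.0093, and Fkbp5, 0.0241) and 3 across the heart batches, where edgeR called 0, 0, 0, 0, 0 and 1. In that order, DESeq2 called 57 of 16239, 468 of 13418, 88 of 16832, 12 of 19834, 50 of 17685 and 1035 of 17046 genes. Without the filter on low counts, edgeR called 6 across the heart batches, 3 for tryptophan in hearts, 1 for naproxen, 2 for tryptophan and 1 for naproxen against celecoxib in jejuna. Over all genes, these fits called 2340 and 179 of 28753 in hearts and 1182, 253 and 1784 of 32343 in jejuna. The cause of these further calls was not tested. Leaving out 1 library gave 0 to 1 called for naproxen with tryptophan in hearts, 0 to 3 across heart batches, 4 to 5 across jejunum batches and 0 to 1 pooled. Fkbp5 passed in the pooled comparison without male control 10 (0.0418), and Zbtb16 without control 3 of experiment 2 (0.047), female naproxen 1 (0.0415) or naproxen 1 of experiment 2 (0.0215). Without the 10 ileum-marked jejuna, 0 were called across batches and 2 for naproxen against celecoxib, and without naproxen jejunum 4 as well 0 across batches. Significant heart pairs numbered 10 in experiment 1 alone, 1 in experiment 2, 3 in experiment 3 and 10 without the 2 hearts that stood apart. With the replicate block, 0 of the 9 were called in any treatment comparison; the numbers mark no shared animal, and same-numbered libraries correlated from -0.47 to 0.41. Of 5364 single-gene values under the alternatives, 5211 kept their sign and the other 153 were called neither way.

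The count of all genes called depended on the tool. For naproxen in females, naproxen in males, their difference, control sex, naproxen in experiment 2, naproxen with tryptophan, tryptophan on naproxen, tryptophan alone and heart batch, edgeR called 2, 0, 0, 23, 0, 41, 15, 0 and 111 genes and DESeq2 57, 36, 1, 71, 12, 468, 88, 12 and 1035. For pooled naproxen and its cohort difference edgeR called 14 and 0 and DESeq2 50 and 11. For naproxen, tryptophan, both, tryptophan on naproxen, the interaction, celecoxib and naproxen against celecoxib in jejuna, edgeR called 2 and then 0 each, and DESeq2 139, 15, 40, 34, 31, 19 and 295. Without the filter these 7 gave 1182, 253, 476, 333, 319, 319 and 1784, and in hearts naproxen with tryptophan gave 9, tryptophan on naproxen 0, tryptophan alone 179, heart batch 2340, naproxen in males 1 and pooled naproxen 8. With the replicate block, edgeR called 6 in males, 13 for control sex, 4 for naproxen with tryptophan, 0 for tryptophan on naproxen, 1 for tryptophan alone, 0 for naproxen in jejuna and 6 pooled. Without the batch block it called 0 for naproxen in jejuna.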
